A study of Mus musculus with 12 samples.

Results

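Protein kinase A (PKA) is the main kinase switched on by cyclic AMP. Its 9 genes examined here are the catalytic subunits Prkaca and Prkacb, the regulatory subunits Prkar1a, Prkar1b, Prkar2a and Prkar2b, and the inhibitors Pkia, Pkib and Pkig. They were taken by name from the 55421 gene IDs of the count tables, each matched a single ID, and 9 of 9 passed the low-count filter that kept 22630 genes. The RNA came from the pituitary of C57BL/6 mice with floxed Gpr101 alleles (Gpr101fl/fl), an allele shared by every group. There were 4 groups of 3 libraries, each treated for 1 week. The group cre_AA14 had the genotype label Cga-creAAVGpr101fl/fl and received AA14, a ligand according to the series title. The group cre_vehicle had the same genotype label and received control vehicle. The group ctrl_AA14 was labelled Cga-ctrlAAVGpr101fl/fl and received AA14, and ctrl_vehicle carried that same label and received control vehicle. Cga is the gene of the glycoprotein hormone alpha subunit, made by gonadotrophs and thyrotrophs, and AAV is adeno-associated virus; the sources used here do not give how Cga and the virus were joined, the age of the mice or whether animals were pooled. The pituitaries were dispersed into single cells and analysed by flow cytometry, and no sort gate is given. No source says that libraries came from separate animals, so each p-value measures no more than the spread among libraries.

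At rest PKA is a holoenzyme in which regulatory subunits hold catalytic subunits inactive. Gs-coupled receptors such as the one encoded by Gpr101 stimulate adenylyl cyclase, cyclic AMP binds the regulatory subunits, and the freed catalytic subunits phosphorylate targets in the cytoplasm and nucleus. Protein kinase inhibitor (PKI) peptides bind free catalytic subunits and carry them out of the nucleus. In somatotrophs, the growth hormone cells, this pathway carries the signal of growth hormone-releasing hormone, and in humans inactivating mutations of PRKAR1A cause Carney complex, in which growth hormone excess can occur.

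Totals ranged from 48693682 to 73388221 counts per library, and the 9 genes together took 0.0859% to 0.186% of them. The scarcest, Pkib, still had 265 to 957 counts per library. Levels are given in CPM, read counts scaled to library size, with TMM factors that correct the sizes for composition. Hormone genes of the pituitary were abundant, with growth hormone (Gh) at 90400 to 242000 CPM. Gpr101, the targeted gene, was at 2.57, 2.43 and 0.901 CPM in cre_AA14, at 2.43, 4.29 and 1.29 CPM in cre_vehicle, at 3.30, 2.20 and 6.60 CPM in ctrl_AA14, and at 1.65, 1.22 and 16.1 CPM in ctrl_vehicle. The cre and control ranges overlapped, so loss of the target is not visible in these gene-level counts. Malat1, a nuclear-retained RNA, was at 1110 to 1560 CPM in 5 libraries (ctrl_AA14 1, 2 and 3, cre_AA14 2 and cre_vehicle 1) and at 199 to 549 CPM in the other 7. Oligodendrocyte markers summed to 3390 CPM in cre_vehicle 2, 782 CPM in ctrl_AA14 1 and 2520 CPM in ctrl_vehicle 3, and to 80.1 to 475 CPM elsewhere.

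Each gene's place is given on GRCm38 from GENCODE vM21. The catalytic gene Prkaca (ENSMUSG00000005469) lies on chromosome 8 at 83972993 to 83996443, and Prkacb (ENSMUSG00000005034) on chromosome 3 at 146729574 to 146812990. Among the regulatory genes, Prkar1a (ENSMUSG00000020612) lies on chromosome 11 at 109649405 to 109669656 and Prkar1b (ENSMUSG00000025855) on chromosome 5 at 139017306 to 139150001. The type II genes are Prkar2a (ENSMUSG00000032601), on chromosome 9 at 108689314 to 108750436, and Prkar2b (ENSMUSG00000002997), on chromosome 12 at 31958476 to 32061296. The inhibitor genes are Pkia (ENSMUSG00000027499), on chromosome 3 at 7366669 to 7445366, Pkib (ENSMUSG00000019876), on chromosome 10 at 57631981 to 57741112, and Pkig (ENSMUSG00000035268), on chromosome 2 at 163658386 to 163726158. Of the 9, Prkar1b shared exon sequence with another gene: 341 bp, or 8.95% of its exons, overlapped the noncoding Gm15672 on the same strand. Gm15672 had 1.10 to 2.60 CPM, against 63.8 CPM or more for Prkar1b. The pseudogene Prkaca-ps1 had 0 CPM in every library.

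The promoters of both catalytic genes and of Prkar1b are shown because Prkaca and Prkar1b separated the same libraries and Prkacb did not, as described further on. Prkar2a separated those libraries too, and its window is described without its sequence. The RefSeq table (GRCm38.p6) held windows for 8 of the 9 genes, each a short stretch spanning a transcription start, and the window nearest the GENCODE start was used. In the lines that follow, read 5′ to 3′ on the gene's strand, capitals mark TGACG, the core of the cyclic AMP response element, GGGCGG, the GC box bound by Sp1-type factors, and CCAAT, each searched on both strands. A CCAAT and a GC box that abut in Prkaca share no base.
Prkaca, chr8:83972728-83973027, plus strand: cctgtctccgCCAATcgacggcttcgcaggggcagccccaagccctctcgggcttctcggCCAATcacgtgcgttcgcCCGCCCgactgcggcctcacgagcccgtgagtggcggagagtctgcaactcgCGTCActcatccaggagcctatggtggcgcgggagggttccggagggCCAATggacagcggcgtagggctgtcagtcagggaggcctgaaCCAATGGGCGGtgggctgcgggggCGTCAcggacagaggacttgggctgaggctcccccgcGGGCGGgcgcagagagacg
Prkacb, chr3:146812897-146813196, minus strand: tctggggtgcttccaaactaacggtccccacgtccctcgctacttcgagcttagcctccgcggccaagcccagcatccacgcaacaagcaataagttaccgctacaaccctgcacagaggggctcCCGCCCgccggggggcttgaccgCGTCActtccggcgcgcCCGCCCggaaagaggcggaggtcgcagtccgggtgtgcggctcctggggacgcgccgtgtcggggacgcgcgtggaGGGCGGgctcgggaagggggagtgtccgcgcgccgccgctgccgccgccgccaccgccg
Prkar1b, chr5:139149952-139150251, minus strand: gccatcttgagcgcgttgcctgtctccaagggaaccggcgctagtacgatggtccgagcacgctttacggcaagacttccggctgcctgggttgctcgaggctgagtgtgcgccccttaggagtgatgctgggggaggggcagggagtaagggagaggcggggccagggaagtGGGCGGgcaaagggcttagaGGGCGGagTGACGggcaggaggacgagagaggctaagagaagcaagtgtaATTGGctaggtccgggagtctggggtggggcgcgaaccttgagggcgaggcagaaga
The Prkaca window held 4 CCAAT matches, where 37.4% of all 32851 windows held at least 1 and 1.06% held 4 or more. Prkar1b held 1, and Prkacb, Prkar1a, Prkar2a, Prkar2b, Pkib and Pkig each held 0. Pkia had no window, and the start in the Prkar2a window lay 2829 bases from the GENCODE start. Whether these matches bear on the levels was not tested. TGACG matched at 2 places in Prkaca (2 or more in 5.01% of windows), at 1 in Prkacb and at 1 in Prkar1b (1 or more in 20.8%). GC boxes numbered 3 in Prkaca, 3 in Prkacb and 2 in Prkar1b, and 35.7% of windows had at least 1. The full element TGACGTCA was in none of the 8 members' windows and in 1.79% of all windows. GC content was 69.7% in the Prkaca window, 72.0% in Prkacb and 63.7% in Prkar1b, with a median of 52.7% over all windows.

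To compare genes, levels were divided by exon length. On this scale of CPM per kb of all annotated exons, Prkar1a led with 140.0 ± 16.4 (SD over the 12 libraries), ahead of Prkaca at 43.9 ± 21.5, and was above it in 12 of 12 libraries. Prkar1b followed at 36.1 ± 17.4 and Prkacb at 22.0 ± 7.32. Prkaca was above Prkar1b in 8 of 12 libraries, so these neighbours do not separate. The inhibitors Pkig (11.8 ± 1.98) and Pkia (11.4 ± 3.66) were alike, with Pkig higher in 7 of 12 libraries. The type II subunits Prkar2a (6.38 ± 2.04) and Prkar2b (6.26 ± 2.50) were likewise close, and Pkib was lowest at 0.745 ± 0.278, below Prkar2b in 12 of 12. With the longest coding transcript as the length, Prkar1a stayed first at 172 ± 20.2, but Pkig was at 44.3 ± 7.47 and level with Prkacb at 44.3 ± 14.8. By mean, both lengths placed Prkar1a first, then Prkaca and Prkar1b, then Prkacb and Pkig. Pkia, Prkar2a, Prkar2b and Pkib came last in that order. Some of these steps were weak: with the coding length Prkaca was above Pkig in 7 of 12 libraries. Prkar2a was above Prkar2b in 8 of 12 libraries with all exons and in 9 of 12 with the coding length.

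**Figure D1:**
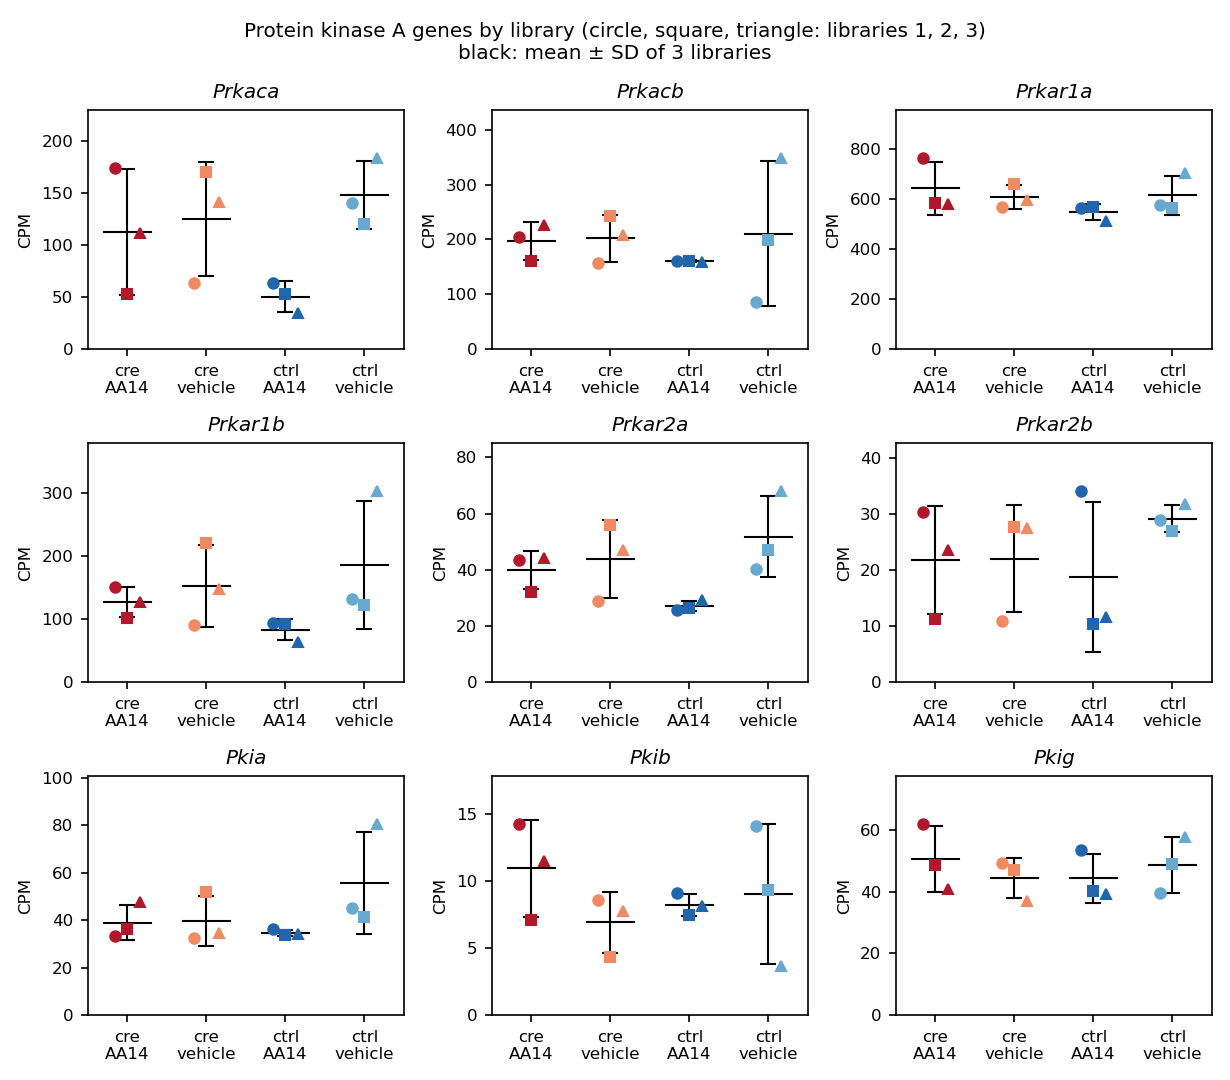
CPM of the 9 genes in each library, with 1 panel per gene and the 4 groups along the x axis; circles, squares and triangles are libraries 1, 2 and 3, and black lines are the mean ± SD of 3. Prkaca sits at 34.5 to 63.9 CPM in all ctrl_AA14 libraries and at 120.1 CPM or more in all ctrl_vehicle libraries, while Prkar1a varies by 1.49-fold over all 12.

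The response to AA14 in mice given the control virus is asked by ctrl_AA14 against ctrl_vehicle. Prkaca, Prkar1b, Prkar2a and Pkia lay lower in every ctrl_AA14 library than in any ctrl_vehicle library, and the other 5 genes overlapped between the groups. All 9 log2 fold changes were negative, with a median of -0.64, against a median of -0.02 and 50.9% negative values over all genes tested. In edgeR's quasi-likelihood test with Benjamini-Hochberg adjustment over all genes, 0 of the 9 passed 0.05, where 0.00442% of all genes did (1 gene). At an unadjusted p under 0.05, 4 of 9 were lower, against 15.8% of all genes, and 0 were higher, against 8.03%. Groups failed to overlap in the lower direction for those same 4 genes and for 20.1% of all genes, and in the higher direction for 0 of the 9 and 17.6% of all genes. In these bulk samples, fewer cells of a type and less RNA per cell cannot be told apart.

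Prkaca, which encodes the most widely used catalytic subunit, was at 63.85, 53.3 and 34.5 CPM in ctrl_AA14, against 140.5, 120.1 and 184 CPM in ctrl_vehicle. All ctrl_AA14 libraries were low and all ctrl_vehicle libraries high, with no overlap. The log2 fold change was -1.55 with an SE of 0.44 (edgeR adjusted p = 0.141). SE was obtained as the size of the log2 value over the root of its F statistic. Each library left out in turn kept the value between -1.77 and -1.33. Prkaca passed the threshold with other tools: DESeq2 gave -1.53 (adjusted p = 0.0182), limma-voom with quality weights -1.34 (adjusted p = 0.0181), and an edgeR fit of the control-virus mice alone -1.54 (adjusted p = 0.0234). DESeq2 called 7.92% of the 22325 genes it gave an unadjusted p lower in this comparison. Limma-voom called 9.97% of the genes it tested lower and that edgeR fit 7.61%. They called 2.38%, 5.1% and 3.04% of the same genes higher, in the same order, and 0 of the 9. Of the 17117 genes to which DESeq2 gave an adjusted p, as it did for all 9 members, it called 13.4% in either direction.

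Prkacb, the second catalytic gene and prominent in brain, was at 160.3, 162 and 158 CPM in ctrl_AA14, against 85.3, 199 and 348 CPM in ctrl_vehicle. The 3 AA14 libraries were nearly identical and fell inside the wide span of the vehicle libraries. The log2 fold change was -0.40 (SE 0.38, edgeR adjusted p = 0.544), and 0.17 without ctrl_vehicle 3, so no direction is shown for it.

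The regulatory subunits differed among themselves. Prkar1a, the widely expressed type I subunit, was at 564, 568 and 513 CPM in ctrl_AA14, against 576, 565 and 706 CPM in ctrl_vehicle, which overlap (log2 fold change -0.17 with SE 0.15, edgeR adjusted p = 0.505). Prkar1b, the type I subunit best known from neurons, was at 94.2, 92.0 and 63.8 CPM in ctrl_AA14, against 133, 123 and 304 CPM in ctrl_vehicle. The groups did not overlap, and ctrl_vehicle 3 stood far above the rest. Its log2 fold change was -1.16 with an SE of 0.38 (edgeR adjusted p = 0.141), or -0.62 without ctrl_vehicle 3, and DESeq2 called it (adjusted p = 0.0392). Prkar2a, a type II subunit that tethers PKA to anchoring proteins, was at 25.7, 26.5 and 29.2 CPM in ctrl_AA14, against 40.4, 46.9 and 68.0 CPM in ctrl_vehicle. All AA14 libraries were below all vehicle libraries, by a log2 fold change of -0.93 (SE 0.26, edgeR adjusted p = 0.141; -0.69 without ctrl_vehicle 3). DESeq2 (adjusted p = 0.0248), limma-voom (adjusted p = 0.0176) and the edgeR fit of control-virus mice alone (adjusted p = 0.0383) each called it. Prkar2b, the type II subunit of brain and fat, was at 34.0, 10.4 and 11.6 CPM in ctrl_AA14, against 28.8, 26.8 and 31.7 CPM in ctrl_vehicle. Library ctrl_AA14 1 was the highest of all 12 and the other 2 were among the lowest, giving a log2 fold change of -0.64 (SE 0.50, edgeR adjusted p = 0.452; -1.42 without ctrl_AA14 1).

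Of the inhibitors, Pkia was at 36.3, 33.7 and 34.1 CPM in ctrl_AA14, against 45.3, 41.4 and 80.6 CPM in ctrl_vehicle, with no overlap. The log2 fold change was -0.68 (SE 0.26, edgeR adjusted p = 0.165), and -0.32 without ctrl_vehicle 3. Pkib was at 9.11, 7.48 and 8.14 CPM, against 14.1, 9.31 and 3.64 CPM (ctrl_AA14, then ctrl_vehicle), a log2 fold change of -0.13 (SE 0.44, edgeR adjusted p = 0.881) that was 0.35 without ctrl_vehicle 1. Pkig was at 53.4, 40.1 and 39.2 CPM in ctrl_AA14, against 39.5, 48.9 and 57.6 CPM in ctrl_vehicle, with a log2 fold change of -0.14 (SE 0.21, edgeR adjusted p = 0.718). Neither Pkib nor Pkig separated the groups.

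**Figure D2:**
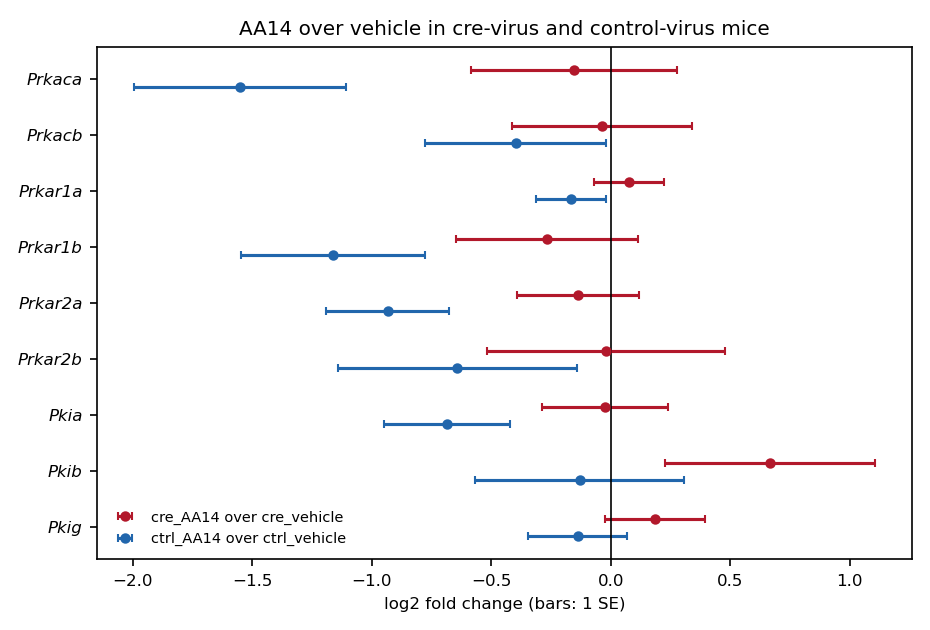
Log2 fold change of AA14 over vehicle for each gene (x axis; points are edgeR estimates, bars 1 SE, n = 3 libraries per group), for cre_AA14 over cre_vehicle in red and ctrl_AA14 over ctrl_vehicle in blue. Prkaca is at -1.55 in control-virus mice and at -0.15 in cre-virus mice, and none of the values passed the adjusted threshold in this fit.

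The make-up of the pools is given as a description without a test. On the scale of CPM per kb of exon, Prkaca made up 58.4%, 53.8% and 43.5% of catalytic transcripts in ctrl_AA14, against 85.3%, 68.0% and 65.0% in ctrl_vehicle. The ratio of catalytic to regulatory transcripts was 0.261, 0.245 and 0.223 in ctrl_AA14, against 0.363, 0.400 and 0.432 in ctrl_vehicle. That of inhibitor to catalytic transcripts was 0.544, 0.496 and 0.618 in ctrl_AA14, against 0.351, 0.341 and 0.321 in ctrl_vehicle. None of these 3 quantities overlapped between the groups, also with the longest coding transcript as the length, where the inhibitor ratio was 0.802 to 0.957 in ctrl_AA14 and 0.481 to 0.644 in ctrl_vehicle. All 3 contain Prkaca, so they are not observations separate from its own level. Per kb of exon, the inhibitor pool overlapped, at 19.7 to 23.9 CPM in ctrl_AA14 and 23.3 to 36.4 CPM in ctrl_vehicle. The catalytic pool was at 31.9 to 43.9 CPM and 66.2 to 113 CPM in the same order. In the cre groups all 3 quantities overlapped: Prkaca made up 53.7% to 75% of catalytic transcripts in cre_AA14 and 59.1% to 71.3% in cre_vehicle. The ratio of catalytic to regulatory transcripts was 0.232 to 0.402 in cre_AA14 and 0.269 to 0.422 in cre_vehicle, and the inhibitor ratio 0.276 to 0.570 in cre_AA14 and 0.239 to 0.5 in cre_vehicle. Library cre_vehicle 1, which is Malat1-rich and had no AA14, was at 0.269 and 0.5 for these ratios, near the ctrl_AA14 values. Within the regulatory pool, Prkar1a held 77.4% to 82.9% in ctrl_AA14 and 62.2% to 73.6% in ctrl_vehicle, and Prkar1b held 11.7% to 14.9% and 18.1% to 30.4% in the same order of groups. Shares of 1 pool move against each other, and the CPM of Prkar1a itself overlapped between these groups. In the Malat1-rich cre_AA14 2 and cre_vehicle 1, Prkar1a held 79.4% and 80.8%, against 67.3% to 76.3% in the other cre libraries. Prkar1b held 15.8% and 14.6% in those 2 libraries, against 17.2% to 25.5% in the other cre libraries. Transcript shares do not give the amounts of protein.

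**Figure D3:**
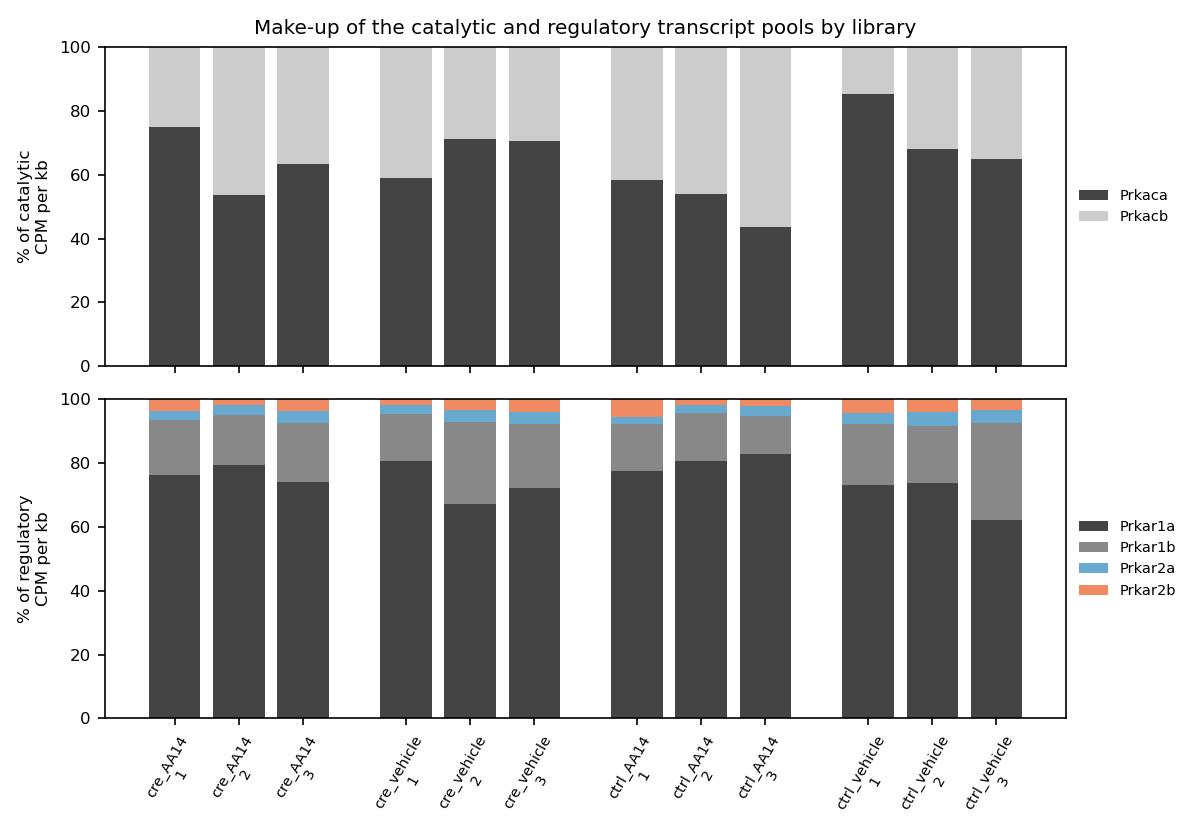
Share of each gene (y axis, percent of CPM per kb of exon) in the catalytic pool (upper panel) and the regulatory pool (lower panel), with 1 bar per library grouped as cre_AA14, cre_vehicle, ctrl_AA14 and ctrl_vehicle. Prkaca holds 43.5% to 58.4% of the catalytic pool in ctrl_AA14 and 65.0% to 85.3% in ctrl_vehicle, and Prkar1a holds at least 62.2% of the regulatory pool in all 12 libraries.

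Of the 4 genes that separated the control-virus groups, 3 also separated the Malat1-rich libraries from the others. In the 5 libraries with Malat1 above 1000 CPM, Prkaca was at 34.5 to 64.0 CPM, Prkar1b at 63.8 to 103 CPM and Prkar2a at 25.7 to 32.0 CPM. In the other 7 libraries these genes were at 111 to 184 CPM, 123 to 304 CPM and 40.4 to 68.0 CPM. For these 3 genes the ranges did not overlap, and they include cre_vehicle 1, which had received no AA14. Over all genes tested that have a symbol, 13.2% were lower and 9.24% higher without overlap in those 5 libraries. Any gene lower without overlap in the 5 is also lower without overlap in ctrl_AA14 than in ctrl_vehicle, so the 2 splits are not independent. The first was met by 2969 genes with a symbol and the second by 4559 genes, so the overlap of the 2 is not particular to these members. Prkacb was at 156 to 162 CPM in the 5 and at 85.3 to 348 CPM in the 7, and the remaining 5 genes overlapped too. All ctrl_AA14 libraries and no ctrl_vehicle library belonged to the 5, so in control-virus mice AA14 and a high Malat1 level cannot be told apart.

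**Figure D4:**
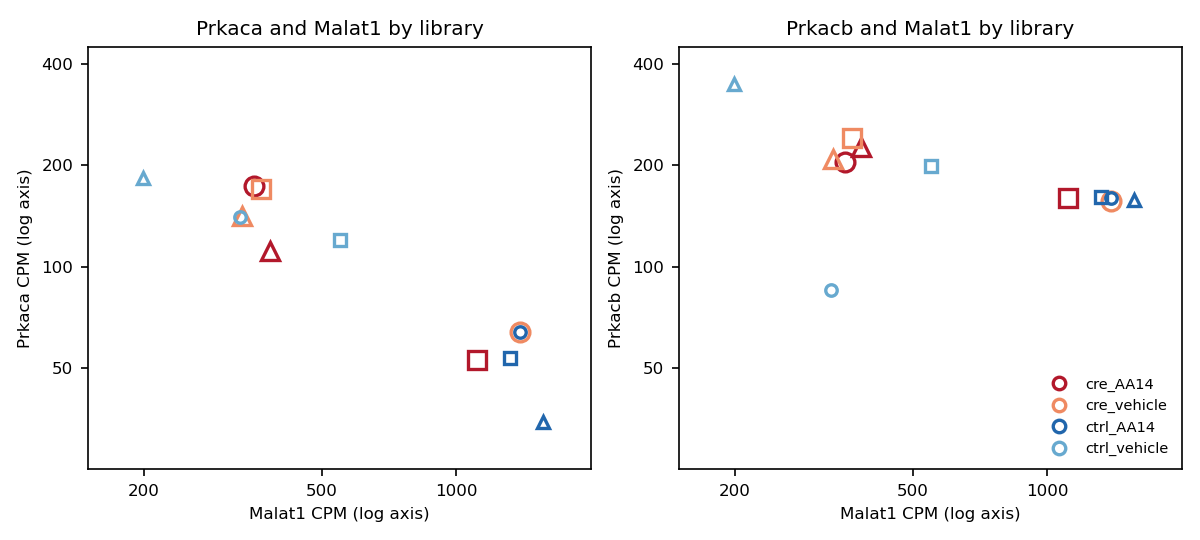
CPM of Prkaca (left) and Prkacb (right) against CPM of Malat1, both axes logarithmic, 1 point per library, with colour for the group and circle, square and triangle for libraries 1, 2 and 3. The 5 libraries above 1000 CPM of Malat1 hold 34.5 to 64.0 CPM of Prkaca, below the 111 to 184 CPM of the other 7, while Prkacb is at 156 to 162 CPM in the 5 and 85.3 to 348 CPM in the 7.

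Transcript GC content differed among the genes and moved with fold changes over all genes. In ctrl_AA14 against ctrl_vehicle the median log2 fold change was 0.24, 0.06, -0.105 and -0.41 in 4 equal bins of genes from lowest to highest GC. Prkaca (54.9% GC), Prkar1b (55.9%) and Pkig (54.5%) lay in the highest bin, Prkacb (45.4%), Prkar1a (45.7%) and Prkar2a (48.3%) in the second, and Prkar2b (44.1%), Pkia (39.1%) and Pkib (39.4%) in the lowest. Of the 9 genes, 8 were below the median of their bin, and Pkig was above its own. The part of GC content in the members' values was not tested.

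**Figure D5:**
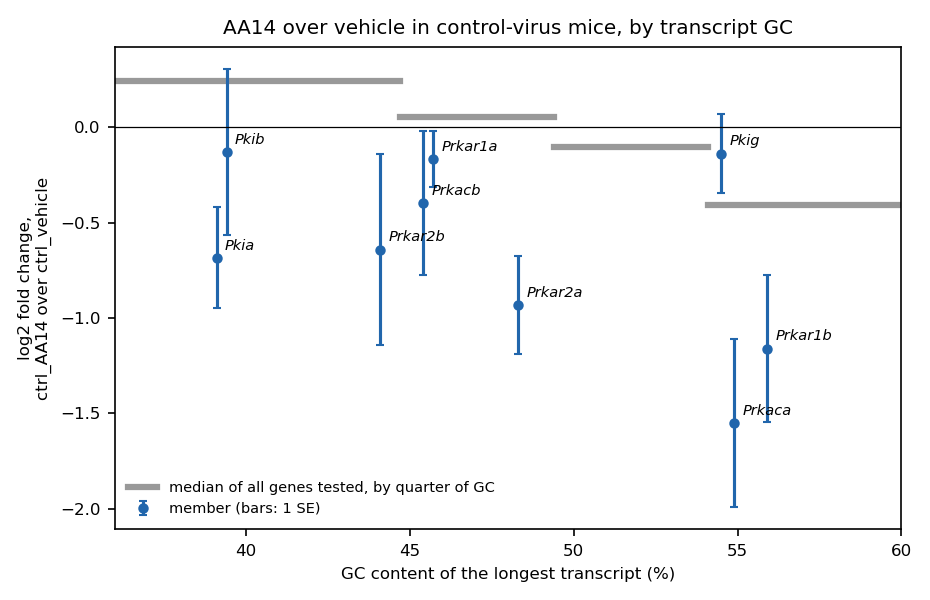
Log2 fold change of ctrl_AA14 over ctrl_vehicle (y axis, points with bars of 1 SE) against the GC content of each gene's longest transcript (x axis, percent), with grey bars for the median of all genes tested in each of 4 equal bins of GC, drawn only within 36% to 60%. Prkaca and Prkar1b lie below the -0.41 of the highest bin, and Pkia, at -0.68, lies below the 0.24 of the lowest.

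Markers of several cell types differed between the same groups. Over all genes tested, 20.1% were lower and 17.6% higher without overlap in this comparison. Pituicyte and posterior lobe markers (4 of 4 matched) had lower means in ctrl_AA14 for 4 of 4, with sums of 17.1 to 23.1 CPM in ctrl_AA14 and 46.8 to 425 CPM in ctrl_vehicle. Neuron markers had lower means for 5 of 5, with sums of 31.6 to 69.5 CPM and 57.5 to 266 CPM, and oligodendrocyte markers for 8 of 8, with sums of 80.1 to 782 CPM and 121 to 2520 CPM, each in ctrl_AA14 and then ctrl_vehicle. Sums of the neuron and oligodendrocyte lists overlapped, and no single marker of theirs was without overlap. Stem or folliculostellate markers had lower means for 3 of 3 (17.9 to 52.5 CPM in ctrl_AA14 and 47.3 to 199 CPM in ctrl_vehicle), and 2 of them did not overlap. Of 4 macrophage markers and of 4 fibroblast or mural markers, all had lower means and 3 in each list did not overlap. Macrophage sums were 92.0 to 123 CPM in ctrl_AA14 and 123 to 187 CPM in ctrl_vehicle, and fibroblast or mural sums 283 to 352 CPM and 346 to 438 CPM in the same order. The sums of the stem or folliculostellate, macrophage, and fibroblast or mural lists overlapped between the groups. Gonadotroph and thyrotroph markers, of the cells that make Cga, were higher: gonadotroph sums were 2280 to 2300 CPM in ctrl_AA14 and 1200 to 1950 CPM in ctrl_vehicle, with 2 of 3 markers not overlapping. Thyrotroph sums were 404 to 555 CPM in ctrl_AA14 and 156 to 320 CPM in ctrl_vehicle, with 2 of 2 not overlapping. Somatotroph markers (2 of 2 higher) summed to 189000 to 242000 CPM in ctrl_AA14 and 90600 to 177000 CPM in ctrl_vehicle. Sums of the lactotroph, corticotroph, melanotroph, endothelial and red cell lists overlapped. Without overlap, 1 of 3 corticotroph and 1 of 3 melanotroph markers were lower, and of 4 endothelial markers 1 was lower and 1 higher. All lactotroph and red cell markers overlapped, with red cell means higher for 4 of 4. Of all these, the oligodendrocyte gene Mog had 0 counts in at least 1 ctrl_AA14 library and no marker was at 0 in ctrl_vehicle. Pituicyte, gonadotroph and thyrotroph sums also divided the 5 Malat1-rich libraries from the other 7, while sums of the other cell type lists overlapped. Pituicyte sums in the Malat1-rich cre_AA14 2 and cre_vehicle 1 were 17.0 and 15.8 CPM, against 53.3 to 79.2 CPM in the other cre libraries. Of these, cre_vehicle 1 had received no AA14. Without the 3 libraries rich in oligodendrocyte markers, Prkaca was at -1.54, Prkar1b at -0.68, Prkar2a at -0.62 and Pkia at -0.32 on the log2 scale, with edgeR adjusted p between 0.465 and 0.521. The part of the other marker lists in these values was not tested.

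After the cre virus, AA14 was compared with vehicle in the same way, and all 9 genes overlapped between the groups. Prkaca was at 174, 52.8 and 111 CPM in cre_AA14, against 64.0, 170.3 and 141 CPM in cre_vehicle. One library in each group was low, cre_AA14 2 and cre_vehicle 1, and both are rich in Malat1. The log2 fold change was -0.15 (SE 0.43, edgeR adjusted p = 1.00), and 0.18 without cre_AA14 2. Prkar1b was at 151, 103 and 128 CPM in cre_AA14, against 90.2, 221 and 147 CPM in cre_vehicle. Its log2 fold change was -0.27 (SE 0.38, edgeR adjusted p = 1.00), and 0.10 without cre_vehicle 2. Prkar2a was at 43.55, 32.0 and 44.2 CPM in cre_AA14, against 28.7, 56.0 and 47.0 CPM in cre_vehicle. Pkib had the largest value of the 9, at 14.3, 7.09 and 11.5 CPM in cre_AA14, against 8.59, 4.35 and 7.80 CPM in cre_vehicle. Its log2 fold change of 0.67 had an SE of 0.44 (edgeR adjusted p = 1.00). Of the 9 genes 0 passed in edgeR, where 0% of all genes did, 0 had an unadjusted p under 0.05 (1.09% of all genes lower and 1.20% higher), and 0 passed in limma-voom or in DESeq2 (0.0493% of all genes lower and 0.0134% higher). Non-overlap was met by 2.54% of all genes in the lower and 3.32% in the higher direction, and 6 of the 9 log2 fold changes were negative, against 50.3% of all genes.

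The remaining genes had similar levels in both cre groups. Prkacb was at 204, 160.2 and 227 CPM in cre_AA14, against 156.5, 242 and 208 CPM in cre_vehicle. Prkar1a was at 764, 584 and 579.5 CPM in cre_AA14, against 566, 662 and 598 CPM in cre_vehicle, with cre_AA14 1 the highest of all 12 libraries. Prkar2b was at 30.3, 11.3 and 23.5 CPM in cre_AA14, against 10.9, 27.7 and 27.4 CPM in cre_vehicle. Within the cre groups its low libraries were thus the Malat1-rich ones. Over all 12 libraries it did not follow Malat1, as the Malat1-rich ctrl_AA14 1 was the highest at 34.0 CPM. Pkia was at 33.3, 36.2 and 47.5 CPM in cre_AA14, against 32.6, 51.7 and 34.6 CPM in cre_vehicle. Pkig was at 61.9, 48.6 and 40.8 CPM in cre_AA14, against 49.1, 47.0 and 37.0 CPM in cre_vehicle.

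Whether the response to AA14 differed by virus was tested as an interaction, the AA14 effect in cre mice minus that in control-virus mice. Prkaca had a log2 difference of 1.40 (SE 0.61, unadjusted p = 0.0431, edgeR adjusted p = 0.631) and Prkar2a one of 0.80 (SE 0.36, unadjusted p = 0.04999, edgeR adjusted p = 0.631). Neither passed, and the other 7 genes had larger p-values. Of the 9, 2 were higher at an unadjusted p under 0.05, against 4.86% of all genes, and 0 were lower, against 2.17%. After adjustment 0 of 9 passed in edgeR, against 0.00442% of all genes, and 0 in DESeq2, against 0.0806% lower and 0.0358% higher. No member had a difference below 0, against 47.7% of all genes. A difference between the viruses in the response of these genes is therefore not shown.

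The cre virus itself was compared under each treatment. Under vehicle all 9 genes overlapped between cre_vehicle and ctrl_vehicle, 0 passed in edgeR (0.00442% of all genes did), and 0 had an unadjusted p under 0.05 (1.06% of all genes lower, 0.932% higher). Non-overlap was met by 2.53% of all genes lower and 2.39% higher, and all 9 log2 fold changes were below 0, as were 53.8% over all genes. DESeq2 called 0 of the 9 (0.0358% of all genes lower, 0.0493% higher), as did the edgeR fit of these groups alone (0.00478% higher). The values farthest from 0 were those of Pkia, at 39.6 ± 10.5 CPM in cre_vehicle and 55.8 ± 21.6 CPM in ctrl_vehicle (log2 fold change -0.49, SE 0.26, edgeR adjusted p = 1.00, n = 3 each), and Prkar2b, at 22.0 ± 9.58 and 29.1 ± 2.46 CPM in the same order (log2 fold change -0.41, SE 0.50, edgeR adjusted p = 1.00, n = 3 each). Under AA14, cre_AA14 lay above ctrl_AA14 without overlap for Prkar1a (log2 fold change 0.23, SE 0.15), Prkar1b (0.61, SE 0.38) and Prkar2a (0.56, SE 0.26), as it did for 7.3% of all genes, with 6.76% lower without overlap. All 9 log2 fold changes were above 0, where 50.6% of all genes were below 0. Prkaca was at 113 ± 60.6 CPM in cre_AA14 and 50.6 ± 14.9 CPM in ctrl_AA14 (log2 fold change 1.16, SE 0.44, unadjusted p = 0.0225, edgeR adjusted p = 0.582, n = 3 each), the groups overlapping through cre_AA14 2. Of the 9 genes 0 passed after adjustment, as did 0% of all genes, and 1 was higher at an unadjusted p under 0.05, against 7.08% of all genes, with 0 lower, against 1.44%. DESeq2 called 0 of the 9, against 0.0806% of all genes lower and 0.0717% higher. Without cre_AA14 2 and cre_vehicle 1, the Malat1-rich cre libraries, Prkaca had a log2 fold change of 1.5 and passed the threshold (edgeR adjusted p = 0.0177). That fit called 6.55% of all genes higher and 1.48% lower. It leaves cre_AA14 libraries with 352 and 382 CPM of Malat1 against ctrl_AA14 libraries with 1320 to 1560 CPM, so the virus and the Malat1 level cannot be told apart in it, and it lacks the library through which Prkaca overlapped. These comparisons share libraries with the AA14 comparisons and are not separate evidence.

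The other genes of the pathway were taken from 6 lists, and in ctrl_AA14 against ctrl_vehicle 0 of them passed in edgeR after adjustment. Counts here are at an unadjusted p under 0.05, which 15.8% of all genes met in the lower and 8.03% in the higher direction. Of 24 anchoring protein genes tested (of 25 listed), 6 were lower and 2 higher, with a median log2 fold change of -0.17. Akap13, an anchoring protein of PKA, was at 28.4, 28.6 and 24.4 CPM in ctrl_AA14, against 36.9, 41.9 and 43.7 CPM in ctrl_vehicle (log2 fold change -0.59 with SE 0.20, edgeR adjusted p = 0.141). Wasf1, an actin regulator that can bind PKA, was at 8.34 ± 1.96 CPM in ctrl_AA14 and 23.3 ± 7.39 CPM in ctrl_vehicle, and Cbfa2t3 at 5.45 ± 0.775 and 10.5 ± 1.76 CPM in the same order. Of 5 other regulators of PKA, 1 was lower: Gpr161, a receptor that itself binds PKA, at 1.26 ± 0.250 CPM in ctrl_AA14 and 3.87 ± 2.42 CPM in ctrl_vehicle. The PKA-related kinase Prkx (9.63 ± 0.413 and 13.3 ± 1.67 CPM) and Arhgap36, which blocks catalytic subunits (76.3 ± 30.1 and 86.4 ± 17.9 CPM), had edgeR adjusted p of 0.300 and 0.746.

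Upstream of PKA, 5 of 14 tested genes of cyclic AMP synthesis and its G proteins (15 listed) were lower and 0 higher, with a median log2 fold change of -1.08. Gnai2, an inhibitory G protein subunit, was at 82.6, 86.9 and 50.8 CPM in ctrl_AA14, against 262, 218 and 342 CPM in ctrl_vehicle (log2 fold change -1.90 with SE 0.51, edgeR adjusted p = 0.141). The adenylyl cyclases Adcy5, at 67.6 ± 8.73 and 142 ± 21.9 CPM, and Adcy9, at 4.65 ± 1.27 and 9.85 ± 1.5 CPM, were likewise separated between ctrl_AA14 and ctrl_vehicle. Of 16 phosphodiesterases that break down cyclic AMP, 5 were lower and 0 higher (median -0.42), among them Pde4d, at 6.30 ± 1.29 CPM in ctrl_AA14 and 13.3 ± 5.42 CPM in ctrl_vehicle. Pde1b was at 25.6 ± 3.00 and 40.0 ± 4.91 CPM, and Pde2a at 3.62 ± 4.41 and 22.2 ± 18.8 CPM, its vehicle mean resting on 43.9 CPM in ctrl_vehicle 3. Negative values were had by 10 of the 14 synthesis genes and 13 of the 16 phosphodiesterases.

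Of 9 other effectors of cyclic AMP, 2 were lower and 1 higher (median -0.59). Rapgef3, an exchange factor opened by cyclic AMP, was the higher one, at 67.2, 71.5 and 77.5 CPM in ctrl_AA14, against 51.1, 59.1 and 48.1 CPM in ctrl_vehicle (log2 fold change 0.45, SE 0.19, edgeR adjusted p = 0.186). Its relative Rapgef4 was at 34.2 ± 1.55 and 58.3 ± 20.5 CPM, and the pacemaker channel Hcn4 at 2.78 ± 0.863 and 10.1 ± 2.77 CPM, in ctrl_AA14 and ctrl_vehicle. Of 16 nuclear targets and coactivators, 4 were lower and 0 higher (median -0.19). Sik3, a kinase that PKA inhibits, was at 44.2 ± 12.1 CPM in ctrl_AA14 and 89.4 ± 9.18 CPM in ctrl_vehicle, without overlap (log2 fold change -1.02 with SE 0.27, edgeR adjusted p = 0.141). The CREB coactivators Crtc1, at 59.2 ± 8.19 and 87.1 ± 9.99 CPM, and Crtc3, at 13.7 ± 0.967 and 25.1 ± 2.93 CPM, were also separated. In cre_AA14 against cre_vehicle the same 6 lists had 0 genes at that level in either direction, with medians between -0.23 and 0.09. In that comparison 1.09% of all genes met the level in the lower and 1.20% in the higher direction. Apart from Pde4d, Gpr161 and Arhgap36, every gene named from the 6 lists also divided the 5 Malat1-rich libraries from the other 7 without overlap. Library cre_vehicle 1, which had no AA14, held 100 CPM of Gnai2, 76.1 CPM of Adcy5 and 77.5 CPM of Rapgef3. The named genes were picked on the control-virus comparison, so the 2 splits are not independent. For them too, AA14 and a high Malat1 level cannot be told apart in control-virus mice. Other tools called some of the listed genes in control-virus mice, at shares near those of all genes. DESeq2 called 10 of the 76 given an adjusted p (13.2%, against 13.4% of all 17117 genes given one), 0 of them higher. Limma-voom called 16 of 84 (19%, against 15.1%) and the edgeR fit of those mice alone 11 of 84 (13.1%, against 10.6%), with 1 higher in each.

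The genes whose pattern over the 12 libraries was nearest to Prkaca were Arf3, Ccdc92 and Pithd1. Likeness was the root-mean-square difference of log2(CPM + 0.5) after centring each gene, over the 10117 genes averaging 10 CPM or more. It was 0.0888 for Arf3, 0.119 for Ccdc92 and 0.122 for Pithd1, against a median of 0.791 and a spread of Prkaca about its own mean of 0.780. Arf3, a small GTPase of the Golgi, was at 175, 160.0 and 91.0 CPM in ctrl_AA14, against 328, 297 and 507 CPM in ctrl_vehicle. For Prkacb the nearest were Crk (0.195), Peg10 (0.230) and Syt5 (0.241), against a median of 0.529 and a spread of 0.465. Crk, a signalling adaptor, shared with Prkacb its lowest value in ctrl_vehicle 1, at 30.3 CPM, with 55.6 to 98.0 CPM in the other 11 libraries.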

How the data were processed

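For each of the 12 pituitary libraries the authors deposited raw gene counts in whole numbers. Per the labels' protocols, TRIzol RNA went into NEBNext Ultra libraries, and hisat2 2.0.0 mapped the paired reads. The submitters' processing notes name GRCm38 as the build, with DESeq 1.8.3 and featureCounts 1.5.0-p3. How strand and overlapping genes were handled, and which annotation was used, no source used here states. Of 55421 gene IDs, 55154 matched a symbol.

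Groups and replicate numbers were taken from the titles. Genes were kept with filterByExpr and scaled with TMM in edgeR 4.0.16. Quasi-likelihood F tests used 1 mean per group over the 12 libraries, with Benjamini-Hochberg adjustment over 22630 genes at 0.05. Alternatives used DESeq2 1.42.0, limma 3.58.1 (voom with quality weights), RLE or upper-quartile factors, other low-count filters, the groups compared only, the replicate block, and libraries left out. The edgeR code was also tested on simulated data with known changes in ctrl_AA14. It recovered 16.4% of 2-fold, 73.1% of 4-fold and 92.4% of 8-fold changes, with 2 calls among unchanged genes. The simulated counts were drawn independently for each gene and library, with no Malat1-rich libraries, so these rates need not hold in the real data. A count of 0 past the threshold therefore does not show that changes are absent.

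The 9 members and the lists were chosen with earlier results of these data known. Named from the other lists were the 3 genes of smallest unadjusted p in ctrl_AA14 against ctrl_vehicle with a mean of at least 1 CPM, since none passed the threshold. GC content came from the longest GENCODE vM21 transcript, known for 99.8% of genes tested. No libraries of a group were near-identical: counts of any 2 of them differed by a chi-square of at least 56.5 per gene.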

Additional observations from a re-analysis of the deposited data

How the results depend on the processing

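In ctrl_AA14 against ctrl_vehicle, the count of the 9 genes past the threshold was 0 in the reported fit, 3 in DESeq2, 2 in limma-voom with quality weights and 2 in a fit of the groups compared only. The count of other pathway genes was 0 in the reported fit and 10, 16 and 11 under those settings. In cre_AA14 against ctrl_AA14, without the 2 cre libraries rich in Malat1, these counts were 1 and 12, against 0 and 0. That is 14.3% of 84 pathway genes, against 8.03% of all genes, in a contrast where cre against control virus coincides with low against high Malat1. Both counts were 0 in every comparison under the other scalings and filters and with any single library left out, and the cause of the differences was not tested. No such fit exists for control-virus mice, whose AA14 libraries are all rich in Malat1.

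Prkacb turned to 0.11 in limma-voom and to 0.20 without the 3 libraries rich in oligodendrocyte markers, and ranged from -0.77 to 0.17 with single libraries left out. Pkib ranged from -0.51 to 0.35 and Pkig from -0.31 to 0.00088 with single libraries left out. In cre mice, without those 3 libraries, Prkaca turned to 0.13 and Prkar1b to 0.092, and with single libraries left out they ranged from -0.62 to 0.18 and from -0.55 to 0.10. Over all 9 genes, 5 of 135 recomputed log2 fold changes of AA14 in control-virus mice changed sign, 25 of 144 in cre mice, 3 of 189 for the interaction, 23 of 144 for cre under vehicle and 3 of 144 for cre under AA14. Among fold changes with any change of sign, the value in the reported fit was at most 0.398 in size.

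With the longest coding transcript as the length, Prkaca averaged 49.8% of the catalytic pool in place of 63.9%, and the inhibitor to catalytic ratio 0.686 in place of 0.405.

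Same-numbered libraries did not deviate together (correlations of -0.56 to 0.36 across genes). With the replicate block, Prkaca in control-virus mice was at -1.55 (edgeR adjusted p = 0.218), and 0 of the 9 genes passed in any comparison. Each of the 9 genes had at least 265 counts in every library.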

Other observations

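Library ctrl_vehicle 3 held the highest level among the 12 libraries of 5 of the 9 genes: Prkaca at 184 CPM, Prkacb at 348 CPM, Prkar1b at 304 CPM, Prkar2a at 68.0 CPM and Pkia at 80.6 CPM. It also held the lowest Pkib, at 3.64 CPM. Of the other 2 libraries rich in oligodendrocyte markers, cre_vehicle 2 (3390 CPM of markers) was alike: Pkib was the next lowest at 4.35 CPM, and Prkacb (242 CPM), Prkar1b (221 CPM), Prkar2a (56.0 CPM) and Pkia (51.7 CPM) were the next highest. Library ctrl_AA14 1 (782 CPM of markers) was not: Prkar2a was the lowest of the 12 at 25.7 CPM, Prkar1b was at 94.2 CPM and Pkib at 9.11 CPM. The share of all genes that were highest in ctrl_vehicle 3 was not computed. The count of 5 of 9 is therefore not shown to be particular to these genes.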
